A study of Bos taurus with 22 samples.

Results

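The nuclear-encoded subunits of the mitochondrial respiratory chain and of ATP synthase were followed in subcutaneous white adipose tissue of Holstein heifers around first calving. Members were all probe sets whose single gene symbol in the array's annotation begins with NDUFA, NDUFB, NDUFC, NDUFS, NDUFV, UQCR, COX4I, COX5, COX6, COX7, COX8 or ATP5, or is SDHA, SDHB, SDHC, SDHD or CYC1. This rule took 110 of the 24016 bovine probe sets and 85 of the 9155 genes with a single symbol. Complex I had 36 genes, complex II 4, complex III 9, complex IV 15 and complex V 17, and the rule also took in 4 assembly factors of complex I whose symbols begin with NDUFAF. NDUFA4, a subunit now placed in complex IV despite its name, and its paralogue NDUFA4L2 were counted there.

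The same 11 heifers were biopsied at the dorsal fat depot 30 days prepartum and 14 days postpartum, which gave 11 Affymetrix bovine arrays in each group. None received a treatment, all were raised on the same farm, and they calved at 24 to 28 months of age. The groups differ by time around calving and by what changed with it, which includes the ration, since the labels give a prepartum and a postpartum one. Values are levels on the scale log2(signal + 7.78) of MAS5 intensities, and changes are postpartum minus prepartum within a cow, so that a change of -1 would be a halving of the signal. Levels of different probe sets are not comparable with each other. The tissue was sampled in bulk, so fewer cells of a type and less RNA per cell cannot be told apart.

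The chain passes electrons from NADH through complex I, or from succinate through complex II, to ubiquinone, then through complex III and cytochrome c to complex IV, which reduces oxygen. Complexes I, III and IV pump protons across the inner membrane, and complex V, the ATP synthase, uses their return to make ATP. White adipocytes hold few mitochondria compared with skeletal muscle, where the same subunits are abundant and where complex IV carries its own tissue-specific isoforms.

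Facts of the arrays bear on every result below. The labelled tissue showed its defining transcripts: 14 of 16 adipocyte markers passed the filter, and the level of ADIPOQ, the gene of adiponectin, ran from 9.54 to 11.62 over the postpartum arrays and from 10.40 to 11.60 over the prepartum arrays. Of 25 skeletal muscle markers 15 passed, and their median stood 8.34 log2 units above that of the same-time arrays of 8 cows in the postpartum array of cow 384. For the prepartum array labelled cow 387 that offset was 7.59, for cow 386 postpartum 4.61, and for cow 384 prepartum 3.19. In the first of these and in cow 384 postpartum, 13 of the 15 markers lay above all 8 cows and 1 below all 8. The filter used the mean over all arrays, so a marker could pass it through such arrays alone. The offsets therefore describe these arrays and are no test of them. The summed signal of these 15 markers ran from 1861 to 65260 prepartum and from 1713 to 108169 postpartum. In the 9 cows other than 384 and 387 it ran from 1861 to 3095 prepartum and from 2124 to 11620 postpartum. In the pair labelled cow 387 the deviations of both arrays from their group means correlated at -0.09, against 0.18 to 0.43 in the other 10 cows, so that this pairing is in doubt. Each result is therefore given over 11 cows and without cows 384 and 387.

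Over all 11 cows the members as a whole differed little between the times, and none passed the test. Of 83 genes with a probe set above the filter, 61 had a lower mean postpartum and 22 a higher one, with a median change of -0.06, against 0.01 over all 6984 genes tested, of which 47.4% were negative. At limma's adjusted p under 0.05, 0 of the 91 member probe sets that passed the filter were called, against 3.43% of all 14410 probe sets (494), of which 286 were lower (1.98%). At an unadjusted p under 0.05, 10 member probe sets were lower and 1 was higher, against 10.2% and 9.64% of all probe sets. The 95% confidence interval of the change lay within 1 log2 unit of 0 in 83 of 83 genes and within 1.5-fold in 82. A change of 2-fold in the mean was therefore outside the interval for every member gene measured above the filter. The other 19 member probe sets lay below the filter and were not tested. They left only COX6A2 and COX6B2, the muscle and testis isoforms of complex IV subunits, without a tested probe set.

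Without cows 384 and 387, several members were lower postpartum and none was higher. Of the 83 genes, 8 fell and 0 rose at limma's adjusted p under 0.05, against 4.38% lower and 3.82% higher among all genes tested. They were UQCRFS1 of complex III, ATP5MC3 of complex V, and NDUFA10, NDUFB1, NDUFB7, NDUFC1, NDUFS6 and NDUFV2 of complex I. By probe sets 10 of 91 were called, all lower, against 3.8% lower and 7.43% in either direction. The mean change was negative in 71 of 83 genes, with a median of -0.13, while the median of all genes stayed at 0.01 with 47.4% negative. At an unadjusted p under 0.05, 27 genes were lower and 0 higher, against 12.7% and 12.6% of all genes. The fall was small in each case: none of the called genes changed by 1.5-fold. Leaving out cow 384 alone gave 11 called member probe sets, and leaving out cow 387 alone gave 0. The calls over all probe sets were 969 and 621 in these fits, against 494 over 11 cows. Within the 9 cows, leaving out another gave 4 to 11 called member probe sets, with the fewest without cow 346. The calls over all probe sets were not counted there. UQCRFS1, NDUFB7 and NDUFC1 were called in 9 of 9 such fits and ATP5MC3 in 8, while NDUFB1 was called in 3, NDUFA10 and NDUFV2 in 2 and NDUFS6 in 1. The change of each of these 8 genes was negative in 9 of 9. These fits reuse the cows in which the genes were called. They show which cows a call depends on and are not separate support for a fall. The change was more negative in this fit than over 11 cows in 77 of 83 member genes, against 46.5% of all genes tested. This shift follows from the cows left out, since the member median changed by 0.774 in cow 384 and by -0.259 in cow 387. It is not separate support for a fall.

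**Figure D1:**
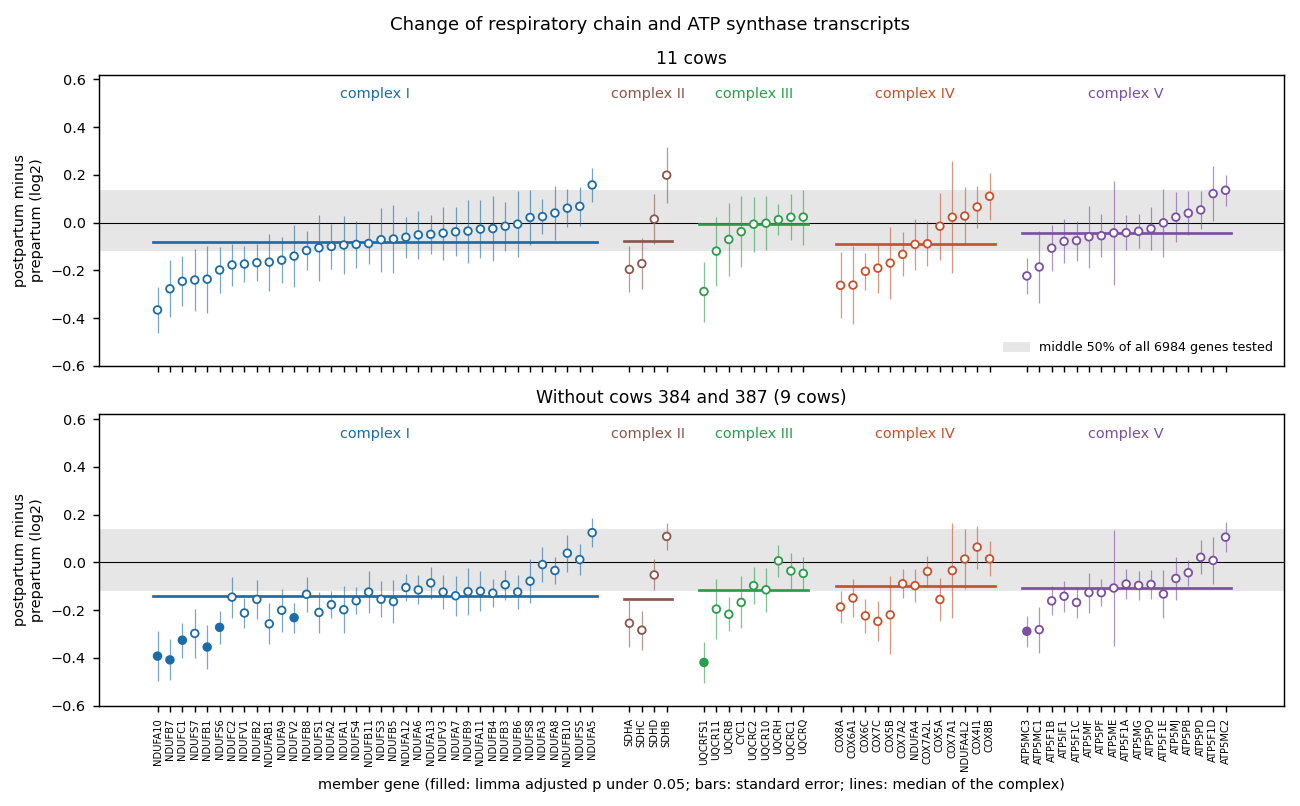
Change of each of the member genes of complexes I to V, postpartum minus prepartum in log2 units, over 11 cows (top) and without cows 384 and 387 (bottom). Points are means over cows, bars are limma standard errors, coloured lines are the median of the complex, filled points passed limma's adjusted p under 0.05, and the grey band holds the middle 50% of all genes tested. No point is filled over 11 cows; 8 are filled in the lower panel, all below 0.

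Markers of cell types were also compared between the times. Without cows 384 and 387, the median change over the adipocyte markers was -0.23 with 5 of 14 called lower, that over 12 macrophage markers was 0.24 with 0 called, and that over 11 endothelial markers was 0.31 with 4 called higher. The adipocyte list did not move as one. LEP (leptin), LPL (lipoprotein lipase), DGAT2, AQP7 and GPD1 fell, with changes of -1.78, -1.15, -1.26, -0.63 and -1.09, while 5 of 14 had positive changes that did not pass: CFD 0.40, LIPE 0.31, CD36 0.21, ADIPOQ 0.13 and FABP4 0.09. The median change was 0.53 over 15 skeletal muscle markers and 0.55 over the 2 of 9 erythrocyte markers that passed the filter, with 0 called in either list. Some muscle markers were dim in many arrays, such as MYL1 with medians of 3.89 prepartum and 3.96 postpartum over 11 cows. The value of 0.53 rests in part on such dim signal. Of 10 brown adipocyte markers 3 passed the filter, and their median change was -0.08 with 0 called.

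Keratinocyte signal was high in some prepartum arrays. Of 12 only KRT5 and KRT10 passed the filter, and their median change without cows 384 and 387 was -1.06. KRT10, a keratin of the upper epidermis, fell by 2.18 (SE 0.60, limma's adjusted p = 0.0444) in 9 of 9 cows, while KRT5 changed by 0.05 (SE 0.14, limma's adjusted p = 0.862). Their summed signal before calving was 793 to 6188 in cows 330, 331, 341 and 382, and no postpartum array exceeded 288. Leaving out these 4 cows as well left 5 cows, in which 75 of 83 member genes were negative with a median of -0.135. At an unadjusted p under 0.05 there were 22 of the 91 member probe sets, and all probe sets were not counted at that p. At limma's adjusted p under 0.05, 0 of the 91 were called, against 156 of all probe sets. The calls over all probe sets also fell, from 1070 in the 9 cows, so the 0 called members cannot be read as an effect of keratinocyte signal. The part of cell makeup in the member changes was not tested.

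Complex I, which takes electrons from NADH, held most of the called genes. Over 11 cows 30 of its 36 genes had a negative change, with a median of -0.08, and 0 were called. Without cows 384 and 387, 33 of 36 were negative, the median was -0.14, and 6 were called lower (16.7% of the complex). The 6 core subunits measured include those that carry the flavin and iron-sulfur clusters. These 6 subunits had a median change of -0.12 over 11 cows and -0.21 without those cows, and 1 of them was called. The 30 supernumerary subunits, which surround the core and serve its assembly and stability, had medians of -0.07 and -0.13, and 5 were called. The core and supernumerary medians differed by less than the SD of either over cows (0.43 and 0.29 over 11 cows, 0.14 and 0.09 over 9), and this difference was not tested.

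NDUFA10, a supernumerary subunit on the matrix side, had the smallest p of complex I over 11 cows. Its level was at lowest 7.80, in the median 8.29 and at highest 8.60 prepartum, and 7.63, 7.75 and 8.58 postpartum. The ranges overlapped, but 10 of 11 cows were lower postpartum. The change was -0.37 (SE 0.10, n = 11) with limma's adjusted p = 0.0527, and -0.39 (SE 0.11, n = 9) with limma's adjusted p = 0.0406 without cows 384 and 387, where 8 of 9 cows were lower. It was the only called gene that was also lower in cow 384, by a change of -0.24.

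NDUFB7, a supernumerary subunit on the intermembrane space side, had levels of 7.81, 8.25 and 8.51 (lowest, median, highest) prepartum and 7.58, 7.87 and 9.08 postpartum. The highest postpartum level was that of cow 384, which rose by 0.78, and cow 386 rose by 0.12. The change was -0.28 (SE 0.12, n = 11, limma's adjusted p = 0.211) and, without cows 384 and 387, -0.41 (SE 0.09, n = 9, limma's adjusted p = 0.0127), or 1.33-fold lower, with 8 of 9 cows lower.

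NDUFC1, a small membrane-arm subunit, was lower in every cow but 384. Its levels were 8.01, 8.35 and 8.74 prepartum and 7.71, 8.05 and 9.31 postpartum. The change was -0.25 (SE 0.10, n = 11, limma's adjusted p = 0.204) and -0.33 (SE 0.07, n = 9, limma's adjusted p = 0.0178) without cows 384 and 387. NDUFS6, a zinc-binding accessory subunit, was also lower in 10 of 11 cows, with levels of 7.47, 7.95 and 8.29 prepartum and 7.26, 7.65 and 8.94 postpartum. Its change was -0.20 (SE 0.10, n = 11, limma's adjusted p = 0.279) and -0.27 (SE 0.07, n = 9, limma's adjusted p = 0.0344) without those cows.

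NDUFB1, another small membrane-arm subunit, had levels of 8.17, 8.45 and 8.95 prepartum and 7.52, 8.08 and 9.55 postpartum. It fell in 8 of 9 cows without cows 384 and 387 (-0.35, SE 0.09, limma's adjusted p = 0.0342), and its mean over 11 cows was -0.24 (SE 0.14, limma's adjusted p = 0.371). NDUFV2, a core subunit of the NADH-oxidising module with an iron-sulfur cluster, had levels of 9.14, 9.25 and 9.56 prepartum and 8.89, 9.01 and 10.60 postpartum. Cow 384 rose by 1.19 in NDUFV2, and the other cow that rose, 386, did so by 0.03. The change was -0.14 (SE 0.13, n = 11, limma's adjusted p = 0.598) and -0.23 (SE 0.06, n = 9, limma's adjusted p = 0.0405) without cows 384 and 387.

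NDUFV1, the partner of NDUFV2 that binds flavin and NADH, did not pass in either fit. Its levels were 7.84, 8.21 and 8.61 prepartum and 7.66, 7.95 and 8.53 postpartum, with a change of -0.17 (SE 0.07, n = 11, limma's adjusted p = 0.211) and -0.21 (SE 0.06, n = 9, limma's adjusted p = 0.0591). No postpartum level of NDUFV1, that of cow 384 included, exceeded its highest prepartum level.

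Some genes were measured by more than 1 probe set, and these did not always give the same call. NDUFB2, a membrane-arm subunit, was called at 1 of its 2 probe sets without cows 384 and 387: the one with the lower mean changed by -0.50 (SE 0.10, limma's adjusted p = 0.0099) with 9 of 9 cows lower, while the one that represents the gene changed by -0.16 (SE 0.08, limma's adjusted p = 0.266). NDUFA5, a subunit of the peripheral arm, had 2 tested probe sets of opposite sign over 11 cows, 0.16 (SE 0.07, limma's adjusted p = 0.244) and -0.09 (SE 0.15, limma's adjusted p = 0.775). The first was higher in 10 of 11 cows and the second lower in 9 of 11, so the direction of NDUFA5 is not settled by these arrays.

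**Figure D2:**
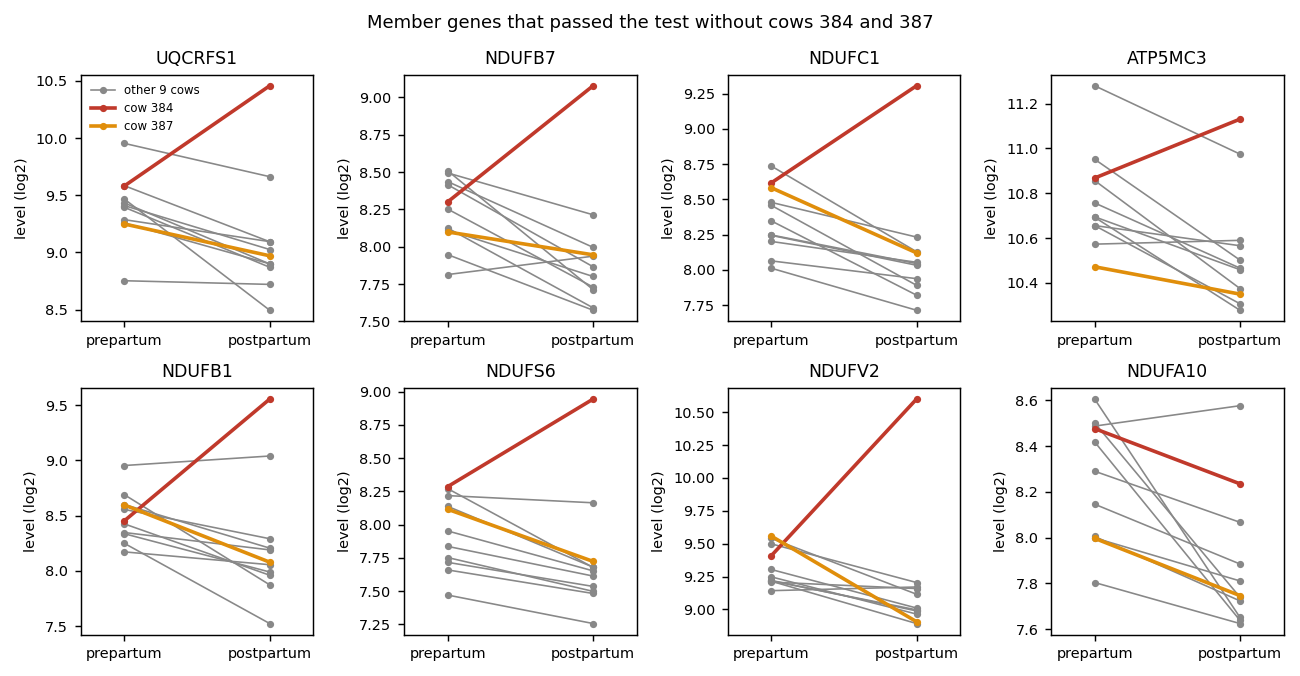
Levels (log2) of the 8 member genes called without cows 384 and 387, prepartum and postpartum, with a line for each of the 11 cows. The grey lines of the other 9 cows mostly fall, while cow 384 (red) rises in every panel except that of NDUFA10.

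Complex II, succinate dehydrogenase, which also serves the citric acid cycle, had 4 members, and 0 were called in either fit. Its median change was -0.08 over 11 cows and -0.15 without cows 384 and 387. SDHA, the flavoprotein, had levels of 9.34, 9.78 and 9.996 prepartum and 9.21, 9.47 and 9.91 postpartum, with a change of -0.20 (SE 0.10, n = 11, limma's adjusted p = 0.275) and -0.26 (SE 0.10, n = 9, limma's adjusted p = 0.131). SDHC, a membrane anchor, had levels of 9.62, 9.85 and 10.26 prepartum and 9.28, 9.58 and 10.62 postpartum. Its change was -0.17 (SE 0.11, n = 11, limma's adjusted p = 0.393) and -0.28 (SE 0.08, n = 9, limma's adjusted p = 0.050), just outside the threshold, with 8 of 9 cows lower.

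The other two subunits of complex II did not share that sign throughout. SDHB, the iron-sulfur subunit, had levels of 9.66, 9.73 and 10.08 prepartum and 9.69, 9.86 and 11.18 postpartum, where cow 384 was highest. Its change was 0.20 (SE 0.12, n = 11, limma's adjusted p = 0.374) and 0.11 (SE 0.06, n = 9, limma's adjusted p = 0.274), and 9 of 11 cows were higher. SDHD, the second membrane anchor, changed by 0.01 (SE 0.10, n = 11, limma's adjusted p = 0.958) and by -0.05 (SE 0.06, n = 9, limma's adjusted p = 0.671), so its sign turned without cows 384 and 387. Its levels were 9.75, 9.89 and 10.27 prepartum and 9.60, 9.88 and 10.97 postpartum. Subunits of this complex therefore had values on both sides of 0.

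Complex III, which hands electrons from ubiquinol to cytochrome c, had 9 members, with 6 negative and a median of -0.01 over 11 cows, and 8 negative and a median of -0.12 without cows 384 and 387. UQCRFS1, the Rieske iron-sulfur protein, was the one called gene. Its levels were 8.75, 9.41 and 9.95 prepartum and 8.49, 8.97 and 10.46 postpartum, and 10 of 11 cows were lower. Cow 384 rose by 0.88. The change was -0.29 (SE 0.13, n = 11, limma's adjusted p = 0.216) and -0.42 (SE 0.09, n = 9, limma's adjusted p = 0.0112), or 1.34-fold lower, without cows 384 and 387, with 9 of 9 cows lower.

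CYC1, cytochrome c1, the other redox-carrying member, changed less and did not pass. Its levels were 8.33, 8.49 and 9.14 prepartum and 7.90, 8.60 and 9.78 postpartum. The change was -0.04 (SE 0.15, n = 11, limma's adjusted p = 0.920) and -0.17 (SE 0.11, n = 9, limma's adjusted p = 0.379). UQCRB, a ubiquinone-binding accessory subunit, had levels of 9.45, 9.98 and 10.53 prepartum and 9.50, 9.66 and 11.64 postpartum, and changed by -0.07 (SE 0.15, n = 11, limma's adjusted p = 0.839) and -0.22 (SE 0.07, n = 9, limma's adjusted p = 0.0804). UQCR11, the smallest accessory subunit, had levels of 8.55, 9.30 and 9.66 prepartum and 8.10, 9.09 and 10.17 postpartum. It changed by -0.12 (SE 0.14, n = 11, limma's adjusted p = 0.694) and -0.20 (SE 0.12, n = 9, limma's adjusted p = 0.367).

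Complex IV, cytochrome c oxidase, was the complex whose median moved least when cows 384 and 387 were left out. It was -0.09 with 9 of 13 genes negative over 11 cows and -0.10 with 10 of 13 negative over 9 cows, and 0 genes were called in either fit. COX6C, a small regulatory subunit, had the smallest p of the complex. Its levels were 10.83, 11.09 and 11.34 prepartum and 10.44, 10.81 and 11.30 postpartum, with 9 of 11 cows lower. The change was -0.20 (SE 0.08, n = 11, limma's adjusted p = 0.160) and -0.22 (SE 0.07, n = 9, limma's adjusted p = 0.071). COX7C, another nuclear-encoded subunit, had levels of 9.77, 10.21 and 10.59 prepartum and 9.57, 9.87 and 10.91 postpartum and changed by -0.19 (SE 0.10, n = 11, limma's adjusted p = 0.330) and -0.25 (SE 0.08, n = 9, limma's adjusted p = 0.0903). COX4I1, the ubiquitous isoform of subunit 4, which takes part in control by ATP, had levels of 10.66, 11.04 and 11.29 prepartum and 10.75, 11.11 and 11.32 postpartum. Its change was 0.07 (SE 0.09, n = 11, limma's adjusted p = 0.728) and 0.06 (SE 0.09, n = 9, limma's adjusted p = 0.723).

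At most of their probe sets, the muscle isoforms of complex IV set apart the 2 arrays with the highest muscle markers. COX6A2, the heart and skeletal muscle isoform of subunit 6A, was below the filter, with levels of 3.25 to 5.76 in 20 arrays, but 9.59 in the postpartum array of cow 384 and 7.84 in the prepartum array labelled cow 387. COX8B, the muscle isoform of subunit 8, read at a probe set below the filter 10.13 and 8.54 in these arrays and 3.27 to 5.54 in the other 20. Its tested probe set read 9.49 and 8.86 there and 8.54 to 9.17 in the others, so the COX8B probe sets disagree. COX7A1, the muscle isoform of subunit 7A, read 9.44 and 8.96 in the same arrays and 6.81 to 8.37 in the other 20. Those 20 include the arrays of cow 386 postpartum and cow 384 prepartum, whose muscle markers were also raised. COX6A2 read 5.61 and 4.66 there, COX8B at its probe set below the filter 5.54 and 4.94, and COX7A1 7.70 and 7.77.

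Their widely expressed partners went the other way in the postpartum array of cow 384. COX6A1 read 8.79 there against 9.86 to 10.89 in the 20 arrays, COX7A2 read 8.96 against 9.51 to 10.49, and COX8A read 9.01 against 9.83 to 10.64. In the prepartum array labelled cow 387, COX6A1 (9.66) and COX8A (9.77) were also below the range of the 20 arrays, while COX7A2 (9.68) was within it. A second probe set of COX6A1, below the filter, read 6.98 and 6.03 in these arrays against 4.05 to 5.64, opposite to the tested one.

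Between the times, none of the isoforms or their partners passed the test. COX6A1 changed by -0.26 (SE 0.16, n = 11, limma's adjusted p = 0.396) and by -0.15 (SE 0.08, n = 9, limma's adjusted p = 0.267) without cows 384 and 387. COX8A changed by -0.26 (SE 0.14, limma's adjusted p = 0.312) and -0.19 (SE 0.07, limma's adjusted p = 0.103), and 9 of 11 cows were lower. COX7A2 changed by -0.13 (SE 0.09, limma's adjusted p = 0.458) and -0.09 (SE 0.06, limma's adjusted p = 0.395). For these partners the mean without cows 384 and 387 was closer to 0, unlike in most members. COX7A1 changed by 0.02 (SE 0.24, limma's adjusted p = 0.972) and -0.03 (SE 0.20, limma's adjusted p = 0.938), and COX8B by 0.11 (SE 0.10, limma's adjusted p = 0.585) and 0.01 (SE 0.07, limma's adjusted p = 0.930).

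**Figure D3:**
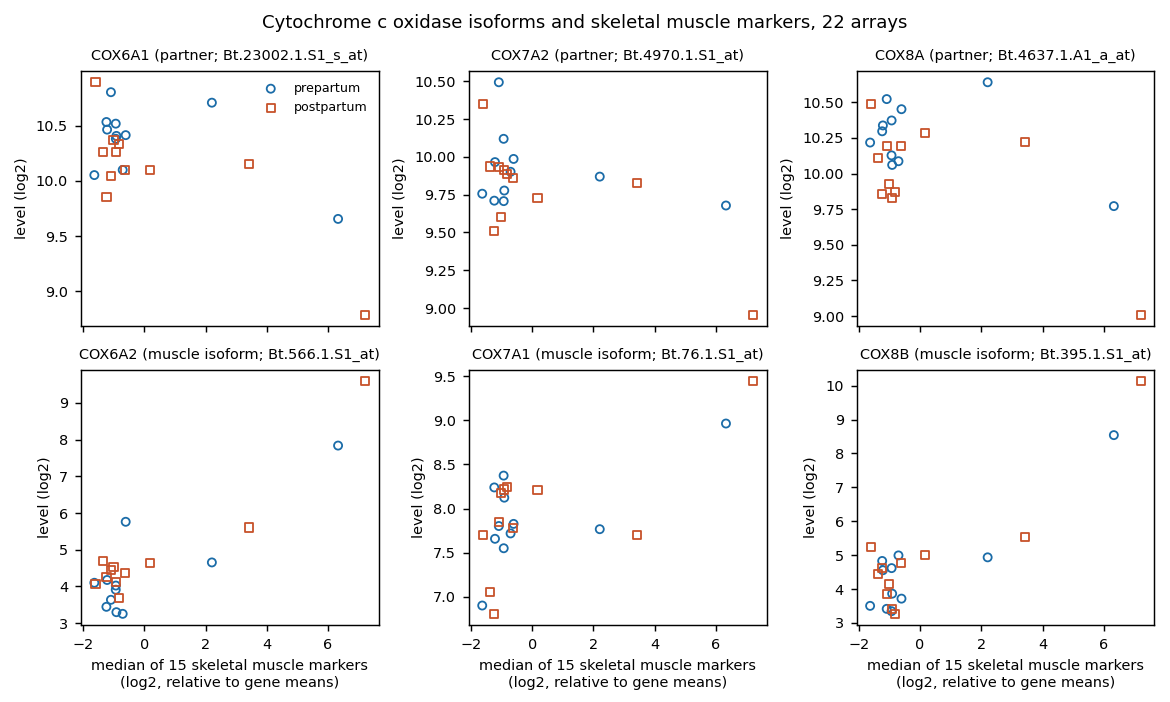
Levels (log2) of complex IV isoforms on each of the 22 arrays against the median of 15 skeletal muscle markers (log2, relative to the mean of each gene), for widely expressed partners (top) and muscle isoforms (bottom). Circles are prepartum and squares postpartum arrays. The array farthest right, postpartum cow 384, has the lowest value in each upper panel and the highest in each lower panel.

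Complex V, the ATP synthase, had 17 members, of which 12 had a negative change over 11 cows (median -0.04) and 14 without cows 384 and 387 (median -0.11). The 3 genes of the c ring, the rotor in the membrane, encode the same mature protein with different targeting sequences, and they did not move alike. ATP5MC3 was called without cows 384 and 387. Its levels were 10.47, 10.69 and 11.28 prepartum and 10.28, 10.47 and 11.13 postpartum. The change was -0.22 (SE 0.08, n = 11, limma's adjusted p = 0.122) and -0.29 (SE 0.07, n = 9, limma's adjusted p = 0.0191), with 8 of 9 cows lower.

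ATP5MC1 did not pass, with levels of 7.70, 8.17 and 8.85 prepartum and 7.21, 7.95 and 8.93 postpartum, and a change of -0.19 (SE 0.15, n = 11, limma's adjusted p = 0.539) and -0.28 (SE 0.10, n = 9, limma's adjusted p = 0.0951). ATP5MC2 had a positive mean, with levels of 10.15, 10.58 and 10.80 prepartum and 10.37, 10.69 and 11.11 postpartum. It was higher in 10 of 11 cows, by 0.14 (SE 0.06, limma's adjusted p = 0.264), and by 0.11 (SE 0.06, n = 9, limma's adjusted p = 0.332) without cows 384 and 387. The difference between the c-ring genes was not tested.

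Other parts of complex V gave smaller values. ATP5F1B, the catalytic beta subunit of the F1 head, had levels of 10.51, 10.63 and 10.91 prepartum and 10.27, 10.48 and 11.47 postpartum and changed by -0.11 (SE 0.10, n = 11, limma's adjusted p = 0.586) and -0.16 (SE 0.06, n = 9, limma's adjusted p = 0.125). In the 9 cows the median was -0.13 over the 2 genes of the F1 head, -0.13 over 3 of the central stalk, -0.07 over 4 of the peripheral stalk and -0.10 over 4 membrane subunits, and 0 of these genes were called. ATP5MG, a membrane subunit, was called only at the dimmer of its 2 probe sets (-0.31, SE 0.08, limma's adjusted p = 0.0399), against -0.10 (SE 0.06, limma's adjusted p = 0.376) at the other. ATP5IF1, which inhibits ATP hydrolysis by the enzyme, changed by -0.08 (SE 0.09, n = 11, limma's adjusted p = 0.685) and -0.14 (SE 0.06, n = 9, limma's adjusted p = 0.203).

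Set side by side, the 5 complexes had medians closer to each other than the SD of most of them over cows, and no test between complexes was made. Their medians lay between -0.09 and -0.01 over 11 cows, while the SD over cows of the median change within a complex was 0.16 in complex IV and 0.27 to 0.35 in the others. Without cows 384 and 387 the medians lay between -0.15 and -0.10 and those SDs between 0.08 and 0.18. In 6 cows all 5 complexes had a negative median, in cows 384 and 386 all 5 were positive, and in cows 338, 341 and 387 a single complex was positive. Complex I was negative in 8 of the 9 cows other than 384 and 387, as were complexes III and V, and complexes II and IV in 7.

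Cow 384 was the largest departure from that pattern. Its medians rose by 0.79 in complex I, 0.81 in II, 0.95 in III, 0.21 in IV and 0.76 in V, while its median over all genes tested was -0.14. The rise came from its postpartum array, where 74 of 83 member genes lay above the postpartum arrays of all 8 cows other than 384, 386 and 387, with a median offset of 1.02, against 24.0% of all genes tested with a median of -0.17. The offset was 1.16 in complex I, 1.10 in II, 1.18 in III and 1.0 in V, where 17 of 17 genes were above all 8 cows. Complex IV differed from the other complexes, with an offset of 0.44, 7 of 13 genes above all 8 cows and 4 below. Those 4 were COX6A1, COX7A2, COX8A and COX7A2L, a factor of supercomplex assembly. The share below was 30.8% in complex IV and 4.8% over all member genes, against 37.1% of all genes tested. Low values were therefore not particular to complex IV in this array. The adipocyte markers of this array were 1.49 below those of the 8 cows.

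The prepartum array labelled cow 387 had a summed muscle marker signal of 65260, against 108169 in the postpartum array of cow 384, and no such offset of the members. Its member genes had a median offset of 0.08 from the prepartum arrays of the same 8 cows. Of these genes 9 were above and 12 below all 8 cows, or 10.84% and 14.46%. Over all genes tested the shares were 11.84% above and 18.04% below, so the member shares did not exceed them. The adipocyte markers of this array were 0.54 lower than those of the 8 cows. In the postpartum array of cow 386 the median offset of the member genes was 0.05. In the prepartum array of cow 384 it was 0.12. The part of muscle RNA in the member values was not tested. When the muscle marker level was a covariate over 11 cows, 1 of 91 member probe sets was called, against 640 of all 14410. It was NDUFB2 at its probe set with the lower mean.

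**Figure D4:**
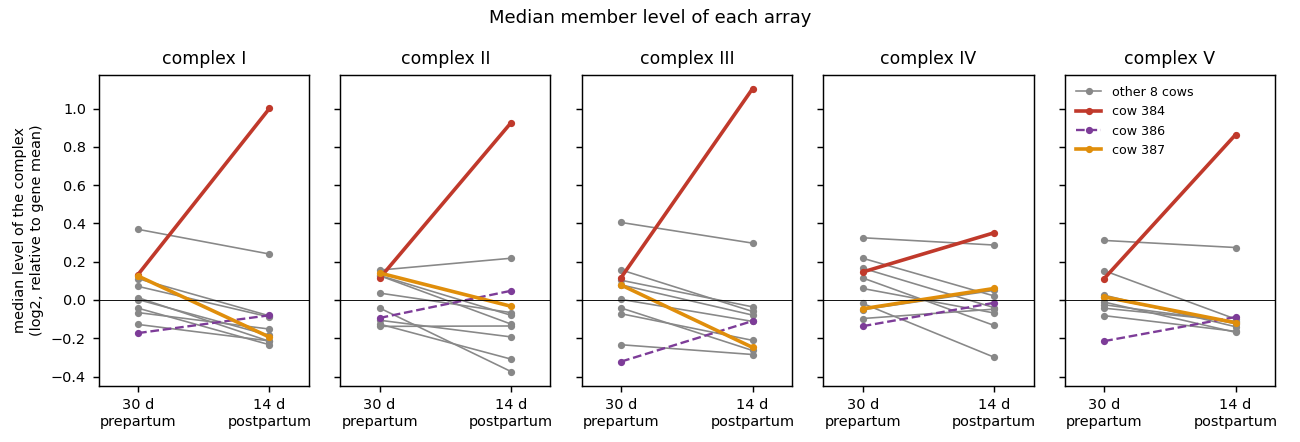
Median level of the member genes of each complex on each array (log2, relative to the mean of each gene), prepartum and postpartum, with a line for each cow. Cow 384 (red) stands at 0.86 to 1.10 postpartum in complexes I, II, III and V and at 0.35 in complex IV, and most of the other cows fall slightly.

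The rule also took in 4 assembly factors of complex I, which are not part of the finished enzyme, and 0 were called. Their median change was -0.04 over 11 cows and -0.07 without cows 384 and 387. NDUFAF5, which modifies the core subunit NDUFS7, changed by -0.11 (SE 0.11, n = 11, limma's adjusted p = 0.638) and -0.14 (SE 0.12, n = 9, limma's adjusted p = 0.534). NDUFAF3 changed by 0.09 (SE 0.12, n = 11, limma's adjusted p = 0.737) and 0.01 (SE 0.09, n = 9, limma's adjusted p = 0.951).

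Other genes that serve the chain gave 0 calls over 11 cows, in 5 lists of which 27 of 49 assembly factors outside the rule, 14 of 22 genes of electron carriers and ubiquinone synthesis, 12 of 20 of ATP export, phosphate import and uncoupling, 12 of 23 regulators, and 24 of 30 of mitochondrial protein import and cristae passed the filter. In the 9 cows 10 of the 88 genes of these lists that are not members were called, 8 lower and 2 higher (11.4%), against 9.64% of the member genes and 4.38% lower and 3.82% higher among all genes tested. Of the assembly factors 2 fell: COX20, which helps mature a complex IV subunit, with a change of -0.31 (SE 0.09, limma's adjusted p = 0.0495), and SDHAF4, of complex II assembly, with a change of -0.49 (SE 0.12, limma's adjusted p = 0.0288). The median over that list was -0.07 in both fits.

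Carriers around the chain moved in both directions. SLC25A3, the mitochondrial phosphate carrier that supplies ATP synthase, fell by 0.30 in 9 of 9 cows (SE 0.07, limma's adjusted p = 0.0178), and SLC25A4, an ADP/ATP carrier abundant in muscle, fell by 0.40 (SE 0.10, limma's adjusted p = 0.0368). UCP2, an inner-membrane carrier of the uncoupling protein family, rose by 1.05 (SE 0.23, n = 9, limma's adjusted p = 0.0178) in 7 of 9 cows, from a median of 6.61 prepartum to 7.78 postpartum over 11 cows. SQOR, which passes electrons from sulfide to ubiquinone, rose in 9 of 9 cows by 0.23 (SE 0.06, limma's adjusted p = 0.0412). UCP2 had a mean of 0.83 (SE 0.31, limma's adjusted p = 0.148) over 11 cows. It is also known from macrophages, whose markers had a median change of 0.24 with 0 called in the 9 cows. A link between them was not tested.

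Among regulators SIRT3, a mitochondrial deacetylase, fell by 0.31 (SE 0.09, n = 9, limma's adjusted p = 0.0442) in 9 of 9 cows, and the median of the list was 0.05. Among import and cristae genes 3 fell without cows 384 and 387: TOMM5 of the outer-membrane translocase with a change of -0.34 (SE 0.09, limma's adjusted p = 0.0391), and TIMM13 and TIMM23 of the inner-membrane pathways with changes of -0.24 (SE 0.06, limma's adjusted p = 0.0385) and -0.27 (SE 0.07, limma's adjusted p = 0.0429). The median of that list was -0.05, above that of each of the 5 complexes. The remaining genes with the smallest p over 11 cows did not pass: COQ6 (0.24, limma's adjusted p = 0.190) and COQ8A (0.43, limma's adjusted p = 0.225) of ubiquinone synthesis, PPARD (-0.18, limma's adjusted p = 0.334), a nuclear receptor, and TOMM70 (0.18, limma's adjusted p = 0.121), a receptor of the outer-membrane translocase.

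The titles end in 2 codes of unstated meaning, which divide the cows into a set of 5 and a set of 6. The postpartum change did not differ between these sets at limma's adjusted p under 0.05 for any of the 91 member probe sets, nor for any of 14410. At an unadjusted p under 0.05, 2 member probe sets differed, of COX5A and NDUFB2, against 3.58% of all. The counts at the adjusted p were 0, or 0% of each. On simulated data this comparison recovered 36% of 100 differences of 1 log2 unit and 89% of 100 differences of 2. Smaller differences between the sets could therefore have gone uncalled. COX5A, a complex IV subunit, had the larger difference, with -0.34 in the set of 5 and 0.26 in the set of 6, which holds cow 384.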

How the data were processed

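MAS5 is the summary method that the submitters' processing notes name, and the values the authors deposited are linear signal intensities. Its settings and version, and a genome build, are not given in the labels used here. The mean after trimming 2% of values at each end was 125.03 on every array. Of 24128 probe sets, 112 array controls were left out. Symbols of all 110 members were checked through the Entrez identifier against a RefSeq table of the ARS-UCD2.0 assembly.

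Values were taken as log2(signal + 7.78), where the pseudocount is the median of the arrays' 20th percentiles, so changes of dim genes are understated. The filter kept 14410 probe sets with means at or above the 40th percentile. Where several of a gene were kept, the one with the highest mean represented it. Changes were tested with limma 3.58.1 in R 4.3.3, with the prior variance following intensity, each cow as its own block, and p-values adjusted by Benjamini-Hochberg over the kept probe sets. The fit was repeated without cows 384 and 387. Every adjusted p comes from limma. Pairing follows the cow number in the titles and the series' description of repeated sampling; own pairs correlated positively in 10 of 11 cows, and 5 of 11 postpartum arrays correlated best with their own prepartum array. The number of arrays limits the precision.

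Named genes were, in each complex, the 4 smallest p over 11 cows, called members, muscle isoforms with partners, members whose tested probe sets disagreed in sign, the 2 smallest p of the NDUFAF genes, and in each other list its called genes and 2 smallest p. NDUFB2, ATP5MG, ATP5IF1, COX5A and the markers named were added after their values were seen. Members, lists and the left-out cows were chosen with earlier results of these data known. On simulated data with 14410 probe sets, the postpartum fit recovered 91% of 100 shifts of 1 log2 unit and 57% of 100 shifts of 0.5, with 7 false among 155 calls. Alternatives varied the block, normalization, filter, pseudocount, test, weights and cows. Figures used matplotlib 3.10.9.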

Additional observations from a re-analysis of the deposited data

How the results depend on the processing

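Against 494 called probe sets and 0 called member probe sets over 11 cows, an adjusted p under 0.10 gave 1048 and 1, array weights 1076 and 11, leaving out cows 384 and 387 1070 and 10, and leaving out cows 384, 386 and 387 950 and 11. The 60th percentile filter, cow as a random effect, quantile normalization and a muscle marker covariate each gave 1 member. Over all probe sets they gave 496, 708, 537 and 640 in that order. For all probe sets, a fold of at least 1.5 gave 243, set 1 alone 69, set 2 alone 0 (1526 at an unadjusted p under 0.05), the exact signed-rank test 285, an ordinary paired test 291, and leaving out cows 330, 331, 341 and 382, whose prepartum arrays had the highest keratinocyte marker signal, gave 6. Leaving out 1 cow gave 242 to 969 probe sets, with fewer by over 1.5 times without cow 330, 341, 346, 347, 360 or 382 and more without cow 384, and 0 to 11 members (11 without cow 384, 1 without cow 331). Without the replicate block 338 probe sets and 0 members were called over 11 cows, and 1 member without cows 384 and 387, where the block gave 10. Against those 10, an adjusted p under 0.10 gave 19, no intensity trend 6, and 0 were left by a fold of at least 1.5, set 1 alone, set 2 alone, leaving out cows 330, 331, 341 and 382, and the exact signed-rank test (at an unadjusted p under 0.05, the last 4 gave 21, 10, 22 and 31). With set 1 alone 2329 of all 14410 probe sets had such an unadjusted p, and for the others this was not counted. The smallest p of the exact signed-rank test needs all 9 cows to go one way. In 9 of 9 cows 3.29% of all genes fell and 2.82% rose. With p-values this coarse, the 0 calls of that test cannot be read for or against a fall. Leaving out 1 cow more gave 4 to 11: 6 without 330 or 347, 5 without 360 or 382, and 4 without 346. All 119 alternative values of the complex medians moved by less than 1 SD over cows. That SD was taken over 11 cows, cow 384 included, and was 0.16 to 0.35, while the medians lay between -0.09 and -0.01. A change of sign could therefore pass as no move, and the count does not show that the medians are stable. The median of complex III reached 0.02 when 1 cow was left out, and NDUFA4 and NDUFA4L2 in complex I, an alternative chosen after seeing the data, gave -0.13 for complex IV.

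Of 839 alternative values of single genes over 11 cows, 26 reversed, 40 became called and 773 did neither; no gene was called over 11 cows, so none could lose a call. SDHD turned to -0.081 in set 1, -0.0518 with array weights, -0.0049 with the covariate, -0.053 without cows 384 and 387, -0.0575 without cows 384, 386 and 387, and ran from -0.0801 to 0.0482 without 1 cow. COX7A1 turned to -0.0597, -0.138, -0.0352, -0.0346 and -0.0368 in that order, to -0.145 without cows 330, 331, 341 and 382, and ran from -0.143 to 0.156 without 1 cow. CYC1 turned to 0.0529 in set 2 and 0.0815 without those 4 cows, and ran from -0.172 to 0.0446 without 1 cow. UQCRB was 0.0427 and UQCR11 0.0004 in set 2, COX8B was -0.023 in set 1 and -0.0149 without cows 384, 386 and 387, and COX4I1 was -0.0282 without cows 330, 331, 341 and 382. NDUFAF3 ran from -0.0101 (without cow 384) to 0.161. The causes were not tested. Low signal left COX6A2 and COX6B2 untested.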
